A study of Homo sapiens with 34 samples.

Results

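ATF3, ATF5 and DDIT3 (CHOP) are stress-induced transcription factors of the basic leucine zipper (bZIP) class, and their m6Am peaks were read from the 3 deposited peak lists of an m6Am-seq study in HEK293T cells. A row was taken when its gene name was ATF3, ATF5, NUP62, DDIT3 or MIR616. MIR616 rows were included because they cover the start of DDIT3, and the NUP62 row because it covers the start of ATF5. Of 2116 rows in all, 6 had such a name: 3 of 1652 in the HEK293T list, 1 of 74 in the heat shock list and 2 of 390 in the hypoxia list. No row was named DDIT3.

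HEK293T cells descend from human embryonic kidney and carry the SV40 large T antigen. m6Am is a methylated adenosine at the first transcribed base of capped mRNA. In m6Am-seq, capped RNA fragments were enriched with an m7G antibody and part of them was treated with FTO, a demethylase that removes m6Am, before both parts were enriched with an m6A antibody. The HEK293T list came from unstressed wild-type cells kept at 37 °C. Heat-shocked cells were held at 43 °C for 2 h and then recovered for 6 h. Hypoxic cells were kept at 37 °C in 1% oxygen for 24 h. Each stress list holds peaks that the authors called as changed against untreated cells, and both stress lists share the same untreated libraries. A gene missing from a stress list was not called as changed and may still have a peak in those cells. There were 2 FTO (-) m6A-IP libraries for wild-type, heat-shocked, hypoxic and untreated cells alike, but each list holds 1 pooled set of peaks, so no value has a replicate error and no test between conditions could be made. Read depth is unknown for these lists.

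The 3 factors act in the integrated stress response. In that pathway, kinases that sense unfolded protein, amino acid shortage, haem shortage or double-stranded RNA phosphorylate the initiation factor eIF2, which lowers translation in general. Translation of ATF4 and ATF5 rises under these conditions because reading frames ahead of their coding sequence steer ribosomes past or towards the main start codon. ATF4 activates the genes of ATF3, a repressor or activator that binds as a dimer, and of CHOP, a C/EBP family member that promotes cell death. An upstream reading frame in the CHOP mRNA also holds back its translation in unstressed cells. NUP62 encodes a nuclear pore protein, and MIR616 is a microRNA gene.

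The sequences below are the 30 bases around some annotated start sites inside the spans and around the distal ATF3 start outside them. They show which base opens the transcript, since m6Am can form only where that base is A. The covered starts of ATF5-205 and ATF5-204, which open with C, and of ATF5-203, which opens with G, are not shown. Nor is that of ATF3-205, which is annotated from a C but has an incomplete 5′ end. The first transcribed base is in capitals, and all are from GRCh37, on the strand of the gene.
ATF3-206, the distal start, chr1:212738661-212738690 (+): ttggttgctttgtggGgcggaggtggggtt
ATF3-208, chr1:212781997-212782026 (+): gaagctattaatagcAttacgtcagcctgg
ATF3-202, the main start, chr1:212782088-212782117 (+): aacgctctccaagccAcagtcgcacgcagc
DDIT3-204, chr12:57914286-57914315 (-): cagccaggcgctcccGaggtcagagactta
DDIT3-201, the main start, chr12:57914283-57914312 (-): ccaggcgctcccgagGtcagagacttaagt
DDIT3-203, chr12:57914280-57914309 (-): ggcgctcccgaggtcAgagacttaagtcta
DDIT3-202, chr12:57914261-57914290 (-): acttaagtctaaggcActgagcgtatcatg
ATF5-202, the upstream start, chr19:50431944-50431973 (+): tcctggcaggtctgtAtttgggagagtgct
ATF5-201, the main start, chr19:50432447-50432476 (+): ccccggggccgcctcAttccctgtcctcgg

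ATF3 was listed in HEK293T cells and under hypoxia at the same place, its proximal promoter. The HEK293T span was chr1:212781970-212782269, 300 bp long, and the hypoxia span was chr1:212781970-212782266, 297 bp long. The starts were identical and the ends differed by 3 bases. No heat shock row carried the name. ATF3 (ENSG00000162772, plus strand, chr1:212738676-212794119) has 7 annotated start sites, and both spans covered the same 3 of them. These were the start of ATF3-202, the MANE Select transcript that serves as the reference mRNA, the start of the retained-intron transcript ATF3-208 at 91 bases upstream of it, and the start of ATF3-205, whose 5′ end is incomplete in the annotation, at 154 bases downstream of it.

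The distal ATF3 promoter, where ATF3-203 and ATF3-206 start 43427 bases upstream of the main start, was outside both spans. So were the internal starts from 4675 bases downstream onwards. The spans began 133 bases before the main start. They ended 166 bases after it in HEK293T cells and 163 bases after it under hypoxia, which left 3 and 6 bases of its first exon uncovered. That exon is 170 bases long and is entirely 5′ untranslated in ATF3-202. The spans therefore held 167 and 164 of the 174 untranslated bases of ATF3-202, or 96.0% and 94.3%. The main start codon lies in the next exon, 6095 and 6098 bases beyond the ends of the HEK293T and hypoxia spans. Counting exons of every ATF3 transcript, 258 of 300 bases were exonic in the HEK293T span (86.0%), and 255 of 297 under hypoxia (85.9%).

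**Figure D1:**
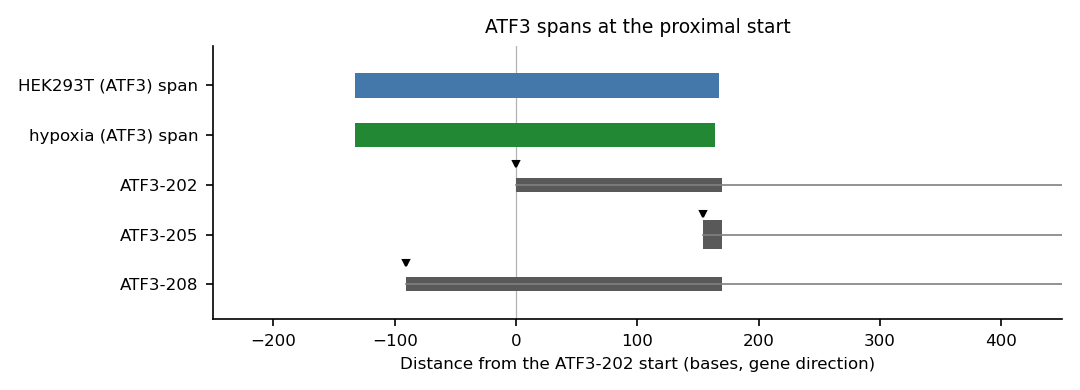
Listed ATF3 spans (coloured bars) and annotated transcripts against the distance from the ATF3-202 start, in bases along the gene. Thin boxes are untranslated or non-coding exons, thick boxes are coding exons, lines are introns and triangles are start sites. Both spans begin 133 bases before the main start and stop 3 and 6 bases short of the end of the first exon, and the distal start lies 43427 bases to the left of the axis origin.

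Reading frames ahead of the coding sequence differ between the ATF3 promoters. An upstream reading frame was counted as an ATG in the 5′ untranslated region followed by an in-frame stop codon, and it was called overlapping where its stop lies past the main start codon. ATF3-202, which starts inside the spans, has 0 of them. The distal transcript ATF3-206, which starts outside the spans, has 5 in its 154 untranslated bases, and 2 of these, of 61 and 47 codons, run past the main start codon. Those 2 share a stop and are in the same frame, and the frames of 7 and 1 codons share another stop. The untranslated region of ATF3-206 is 46.1% G or C, against 74.7% in ATF3-202. Of MANE Select transcripts, 79.5% have a lower GC content there than ATF3-202, and the median is 64.7%.

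DDIT3 was listed in HEK293T cells and under hypoxia through spans named MIR616. The HEK293T span was chr12:57911217-57914300, 3084 bp long. The hypoxia span was chr12:57911164-57914300, 3137 bp long. The ends at 57914300, which are the 5′ ends because DDIT3 (ENSG00000175197, chr12:57910371-57915520) is on the minus strand, were identical, and the other ends differed by 53 bases. No heat shock row covered the gene. Both spans opened exactly on the first base of DDIT3-204, 3 bases ahead of the MANE Select transcript DDIT3-201. Of 5 DDIT3 start sites, 4 were inside both spans, within 25 bases of that edge. The start of DDIT3-206, 1223 bases upstream of the main start, was outside both.

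The 3′ ends of the DDIT3 spans fell on either side of the main start codon. In HEK293T cells the span stopped 28 bases before the first base of that codon, which took in 5 bases of the third exon. Under hypoxia it stopped 25 bases after it. Along the spliced DDIT3-201 mRNA of 903 bases, the HEK293T span held the first 150 bases and the hypoxia span the first 203. The untranslated region was covered for 150 of 177 bases (84.7%) in the first list and in full in the second. DDIT3-203, DDIT3-204 and DDIT3-205 have a start codon further upstream, at 57911258, and that codon was inside both spans.

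**Figure D2:**
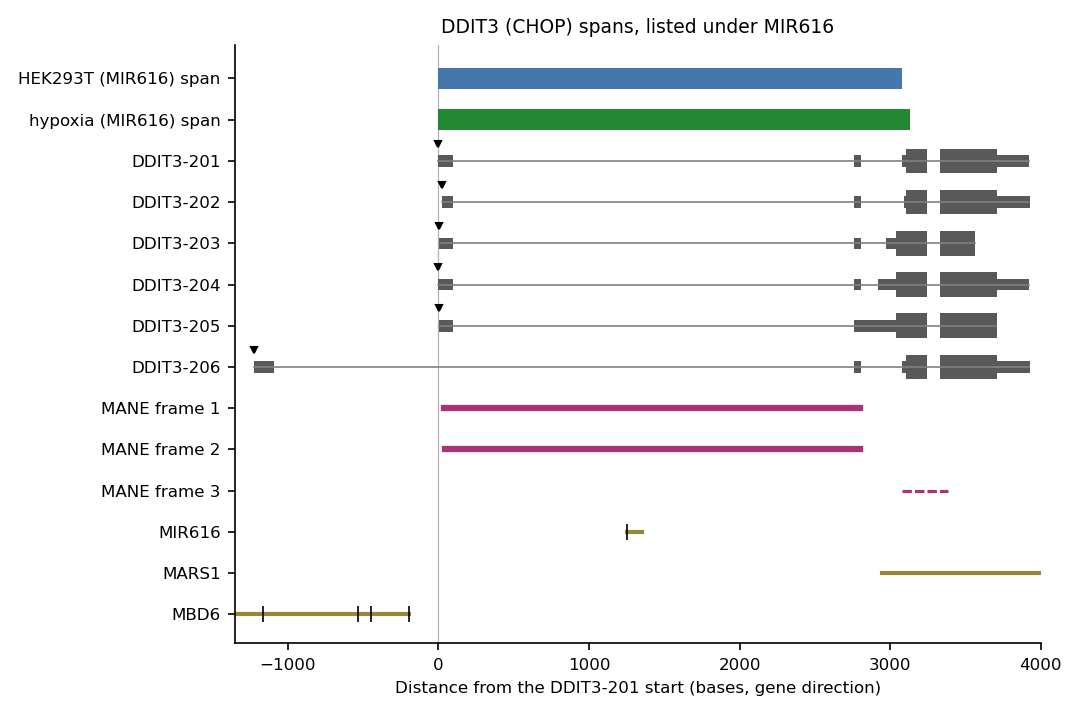
Spans listed as MIR616 (coloured bars), DDIT3 transcripts, the outer extents of the upstream reading frames of DDIT3-201 (purple, introns included, dashed where the frame overlaps the main start) and neighbouring genes (ochre, start sites as ticks) against the distance from the DDIT3-201 start. Both spans open 3 bases before that start, and only the hypoxia span reaches the main start codon, which it passes by 25 bases.

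DDIT3-201 has 3 upstream reading frames, and the spans treated them differently. The following stretches show their start codons and the main one in capitals, on the DDIT3 strand of GRCh37, because the edge of the HEK293T span lies between the last of them and the main start codon. The stretch around the third codon is spliced across an intron.
Upstream start codon 1, chr12:57914249-57914275 (-): actgagcgtatcATGttaaagatgagc
Upstream start codon 2, chr12:57914240-57914266 (-): atcatgttaaagATGagcgggtggcag
Upstream start codon 3, chr12:57911207-57911500 (-), exon ends joined: acctgaaagcagATGtgcttttccaga
Main start codon, chr12:57911175-57911201 (-): ccaactgcagagATGgcagctgagtca
The first frame has 34 codons and the second, which is in the same frame and shares its stop, has 31. Both lie wholly inside both spans, and their stop comes 38 bases before the main start codon. The annotation lists the first of them as a protein-coding gene of its own, ENSG00000285133, with the same start and stop. The third frame has 73 codons and runs 190 bases past the main start codon. Of its 222 bases the HEK293T span held 5 and the hypoxia span 58.

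MIR616 was the annotated gene whose start lay nearest to the middle of these spans. Its hairpin, chr12:57912946-57913042, is 97 bases long and lies in the first intron of DDIT3-201, with 0 bases in any DDIT3 exon. The start of MIR616 was 284 bases from the midpoint of the HEK293T span, against 1516 bases for the nearest DDIT3 start. Under hypoxia the distances were 310 and 1543 bases. DDIT3 exons took 420 of 3084 bases (13.6%) of the span in HEK293T cells and 473 of 3137 bases (15.1%) under hypoxia. The mature microRNAs are shown because they carry the name of the rows, with the seed (bases 2 to 8) in capitals, from RefSeq (GRCh38.p14).
hsa-miR-616-5p: aCUCAAAAcccuucagugacuu
hsa-miR-616-3p: aGUCAUUGgaggguuugagcag
The seeds CUCAAAA and GUCAUUG are not shared between the arms.

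ATF5 was listed in HEK293T cells under its own name and after heat shock under the name NUP62, with spans that differed at both ends. The HEK293T span was chr19:50432400-50436173, 3774 bp long, and the heat shock span was chr19:50431959-50434035, 2077 bp long. The heat shock span began 441 bases further upstream and ended 2138 bases earlier. They shared 1636 bases, 78.8% of the heat shock span and 43.3% of the HEK293T span. No hypoxia row covered the gene.

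The ATF5 spans differed in the annotated ATF5 starts they covered. ATF5 (ENSG00000169136, plus strand, chr19:50431959-50437192) has 5 start sites. The heat shock span opened exactly on the first base of ATF5-202, the most upstream start, and covered all 5 sites. The first exon of ATF5-202, 305 bases long, is also exonic throughout in NUP62 on the other strand. Signal there cannot be assigned to ATF5. The HEK293T span opened 62 bases before the start of ATF5-201, the MANE Select transcript, and 441 bases after that of ATF5-202, and it covered 4 of the sites. The start of ATF5-203, 1014 bases downstream of the main start, was inside both.

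At the 3′ side the ATF5 spans fell on either side of the main start codon. The heat shock span stopped 73 bases before the first base of that codon, and along spliced ATF5-201 it held the first 243 of 315 untranslated bases (77.1%). Along spliced ATF5-202 it held 510 of 582 untranslated bases (87.6%). In HEK293T cells the span held all 315 untranslated bases of ATF5-201 and 673 of its 849 coding bases, the stop codon included in the latter, and it ended 176 bases before the last base of the stop codon. Over the exons of all ATF5 transcripts, 927 of 2077 bases (44.6%) of the heat shock span were exonic and 0 of them were coding. In HEK293T cells, 1568 of 3774 bases were exonic (41.5%) and 762 were coding.

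**Figure D3:**
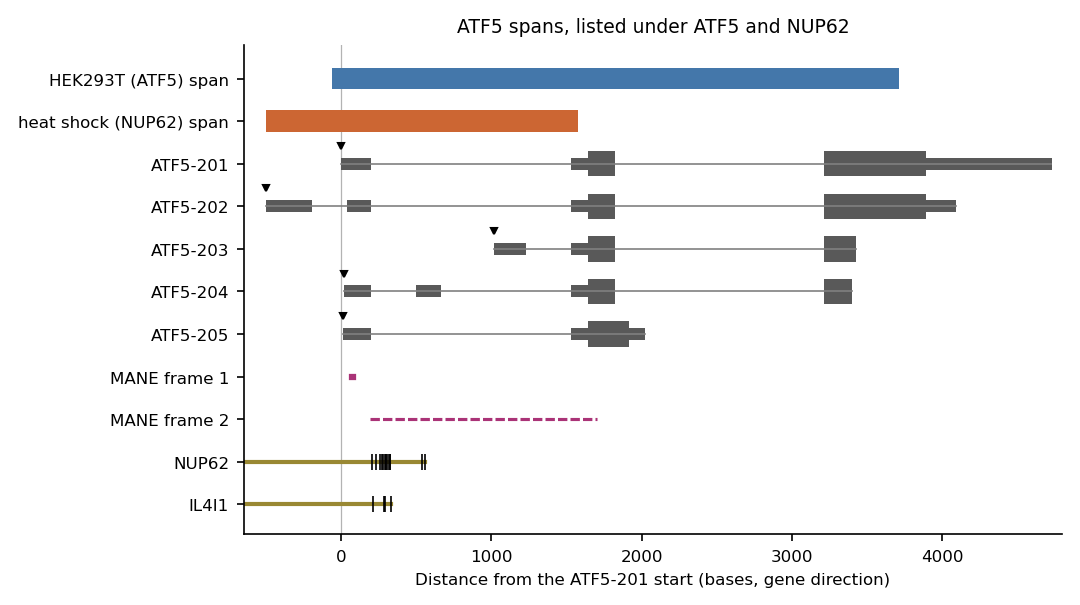
Listed spans at ATF5 (coloured bars), ATF5 transcripts, the outer extents of the upstream reading frames of ATF5-201 (purple, introns included, dashed where overlapping) and the NUP62 and IL4I1 genes on the other strand (ochre, start sites as ticks) against the distance from the ATF5-201 start. The heat shock span opens on the ATF5-202 start, 503 bases before the origin, and ends before the main start codon, which the HEK293T span includes.

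ATF5-201 has 2 upstream reading frames. Their start codons and the main one are in capitals below, on the plus strand of GRCh37, because the heat shock span ends inside the second frame. The stretch around the second codon is spliced across an intron.
Upstream start codon 1, chr19:50432519-50432545 (+): gtagccccggccATGgctctgtagcct
Upstream start codon 2, chr19:50432641-50433998 (+), exon ends joined: cttgctgcagccATGgagtcttccact
Main start codon, chr19:50434096-50434122 (+): tgtgctacagccATGtcactcctggcg
The first frame has 3 codons and ends 234 bases before the main start codon. The second has 59 codons and runs 56 bases past the main start codon in another frame. Both lie wholly inside the HEK293T span. The heat shock span held the first frame whole and 52 of the 180 bases of the second.

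The other ATF5 transcripts share the stop of that second frame. ATF5-205 has the same 2 frames, ATF5-203 has 3 and ATF5-204 has 5. Of the 5 in ATF5-204, those of 114, 95 and 74 codons all end at that stop. In ATF5-203, the frames of 20 and 4 codons share another stop. ATF5-202, the only transcript that starts outside the HEK293T span, has 6. Its 4 extra frames, of 19, 3, 10 and 56 codons, begin between 22 and 157 bases from its start. Those of 19 and 3 codons share a stop. All 4 extra frames were whole in the heat shock span, while the HEK293T span held none of their start codons and 23 of the 171 bases of the longest. All of these start codons lie in the exon shared with NUP62.

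The ATF5 locus cannot be assigned to a strand from the lists, which give none. NUP62 (ENSG00000213024) and IL4I1 (ENSG00000104951), which encodes an amino acid oxidase, lie on the minus strand, and 13 NUP62 starts and 4 IL4I1 starts were inside both spans. The midpoint of the heat shock span was 4 bases from a NUP62 start and 479 from the nearest ATF5 start. For the HEK293T span the nearest ATF5 start was 810 bases from the midpoint and the nearest NUP62 start 1266. In the heat shock span NUP62 exons took 1063 bases and ATF5 exons 927, of which 565 belonged to both. In the HEK293T span they took 622 and 1568 bases, with 260 in both. Where exons of both genes overlap, signal from the ATF5 and NUP62 strands therefore cannot be told apart. ATF5 exons outside NUP62 exons took 362 bases of the heat shock span and 1308 of the HEK293T span. The NUP62 gene is annotated up to position 50433021, short of the 3′ ends of both spans. The lists do not show which of these exons carried signal. At DDIT3, 136 bases of the HEK293T span and 189 of the hypoxia span were also exonic in MARS1, a tRNA synthetase gene on the plus strand whose 3′ end reaches into DDIT3, and 0 bases were exonic in MBD6, whose first start is 193 bases from the spans.

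**Figure D4:**
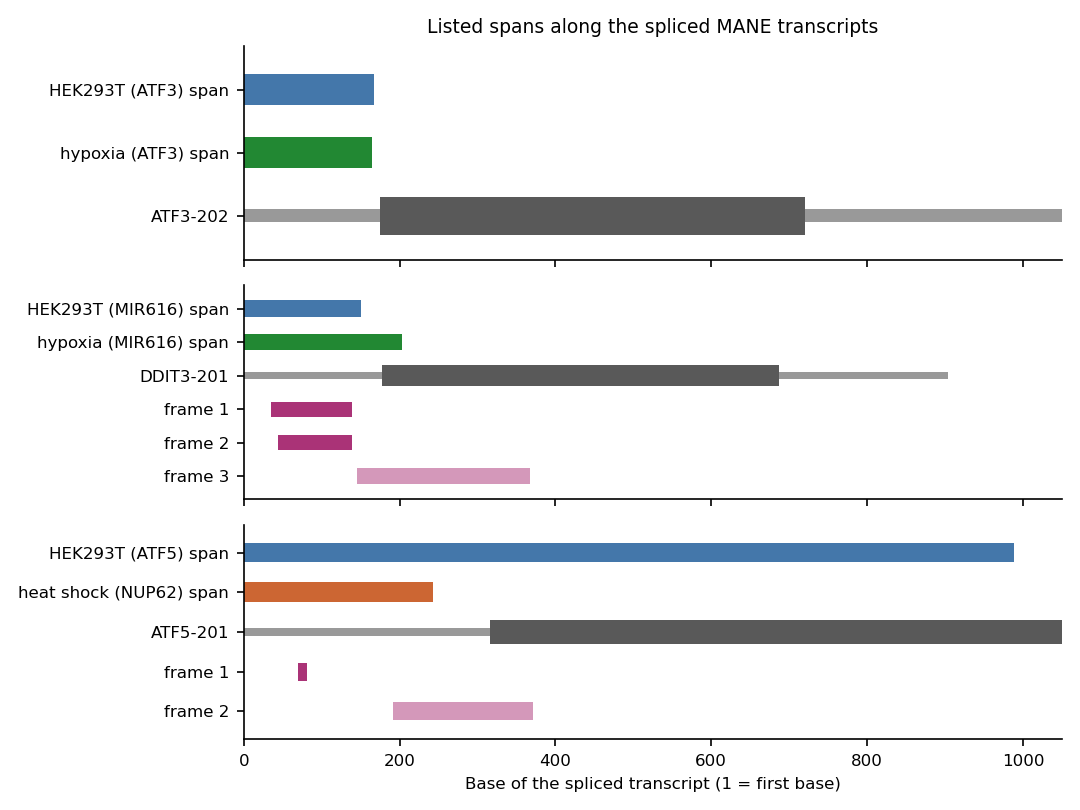
The part of each spliced MANE Select transcript that the listed spans hold (coloured bars), in bases from the first base, above the transcript (thick grey, coding) and its upstream reading frames (purple, pale where overlapping the main start). The axis ends inside the longer transcripts. The spans hold 167 and 164 bases of ATF3-202, 150 and 203 bases of DDIT3-201, and 988 and 243 bases of ATF5-201.

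Upstream reading frames were present in 2 of the 3 main transcripts, DDIT3-201 and ATF5-201, against 41.6% of 18625 MANE Select transcripts. In the same 2 a frame overlapped the main start codon, against 13.4%. A start codon is read more efficiently with a purine 3 bases before it and a G directly after it. Both frames of ATF5-201 have G at each of these places, and the main ATF5 start codon has G before and T after. In DDIT3-201 the main codon has G at both places, while the upstream codons have A and T, A and A, and C and T. ATF3-202 has A at both. Of the 3 main start codons, 1 thus had both features, against 43.7% over the MANE Select transcripts. The 5′ untranslated region of ATF5-201 was longer than in 81.5% of these transcripts, with 315 bases against a median of 136. Those of DDIT3-201 (177 bases) and ATF3-202 (174 bases) were longer than in 60.2% and 59.5%.

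The first transcribed base was A at 6 of the 12 start sites of the 3 genes inside a span, against 35.2% of 7330 start sites of the named gene inside all HEK293T spans. At 5 of the 12, that A followed C and a base other than A before it, the BCA context, against 17.0%. The background holds HEK293T spans and named genes alone. The 12 also include ATF5-202, from the heat shock span alone, and the DDIT3 starts, from rows named MIR616, so the sets are not alike. In ATF3, 2 of 3 covered starts had A, both in BCA, and ATF3-202 was one of these with CCA. The remaining one, of ATF3-205, was counted as C. Its 5′ end is incomplete in the annotation, so its first transcribed base is not known. In ATF5, 2 of 5 had A. The main start ATF5-201 had TCA, while the upstream start ATF5-202, which the heat shock span alone covered, had GTA. In DDIT3, 2 of 4 had A, both in BCA, but the main transcript DDIT3-201 opened with G. The A of DDIT3-203 and DDIT3-205, in TCA, lies 3 bases downstream of it, and that of DDIT3-202, in GCA, 22 bases downstream. Of the 5 starts outside the spans, the distal ATF3 start and that of DDIT3-206 open with G, and the 3 internal ATF3 starts open with T, A and C.

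Coverage of a start site by the 6 spans was in part what chose them, so it is given as a description. Each of the 6 covered at least 3 start sites of its stress gene. Over all rows with a name found in the annotation, the span covered a start of the named gene in 91.5% of 1566 HEK293T rows, 87.7% of 65 heat shock rows and 91.1% of 369 hypoxia rows. A start of a protein-coding gene other than the named one was covered by 2 of the 3 HEK293T spans, named MIR616 and ATF5, against 14.5% of that list. The NUP62 span of the heat shock list also covered one, against 23.0%, as did 1 of the 2 hypoxia spans, against 14.4%. In all 6 rows the named gene was the one with a start nearest to the midpoint of the span, as in 84.0% of HEK293T rows, 75.4% of heat shock rows and 83.2% of hypoxia rows. The authors took the names from an annotation of the peaks by position, so this describes the naming and is no result about the genes.

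Edges on annotated exon boundaries occurred in 3 of the 6 spans. These were the MIR616 span in 1 of 3 HEK293T rows, against 29.5% of the list, the NUP62 row of the heat shock list, against 27.0%, and the MIR616 span in 1 of 2 hypoxia rows, against 29.2%. The heat shock span overlapped a HEK293T span, as did 60.8% of its list, but shared neither end with it, while 68.9% of the overlapping heat shock spans shared one. Both hypoxia spans overlapped a HEK293T span, against 56.4% of their list, and both shared an end with it, against 82.3%.

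**Figure D5:**
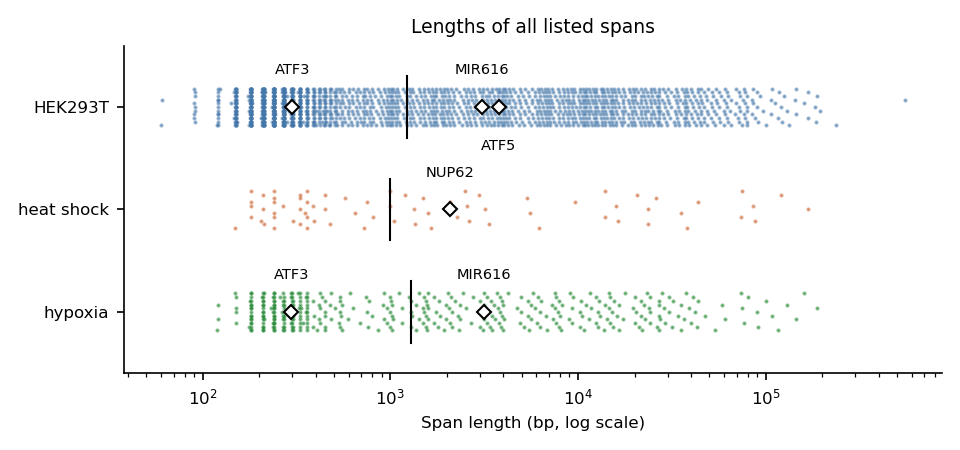
Length of every listed span in bp on a log axis, by list. Points are spans, spread vertically for visibility, bars are list medians, and diamonds are the 6 spans described here. The ATF3 spans of 300 and 297 bp lie below the medians of 1228.5 and 1287.0 bp, and the MIR616, ATF5 and NUP62 spans of 2077 to 3774 bp lie above theirs.

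The ATF3 spans lay below the medians of their lists and the others somewhat above, as the plot of all lengths shows. Of HEK293T spans, 26.6% were shorter than that of ATF3, 60.6% shorter than that of MIR616 and 63.4% shorter than that of ATF5. Of hypoxia spans, 23.6% were shorter than that of ATF3 and 62.3% shorter than that of MIR616. The NUP62 span was longer than 60.8% of the heat shock list, whose median was 989.5 bp. The lists give outer ends alone, so a span that crosses an intron does not show which exons carried signal.

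Stress motifs were searched on both strands in the 250 bases before and 50 bases from 5 starts, those of ATF3-202, the distal ATF3-206, DDIT3-201, ATF5-201 and ATF5-202, with all 78582 such windows at protein-coding starts as the background. A match here is of letters and does not show a bound site. At the ATF3 main start, the TATA box TATAAA was found at 32 bases before the start, against 9.53% of windows, and the C/EBP-ATF composite site TGATGNAAN at 21 bases before it on the gene strand and at 204 bases before it on the other, against 2.97%. The composite site is bound by dimers of ATF4 with C/EBP factors. Both ATF3 spans held the TATA box and the nearer composite site. These are shown with the matches in capitals, followed by a stretch that holds a cAMP response element (CRE) with 1 mismatch in capitals, which ATF family dimers bind.
ATF3 TATA box and composite site, chr1:212782068-212782097 (+): ggcTATAAAaggggTGATGCAACgctctcc
ATF3 CRE with 1 mismatch, chr1:212782002-212782031 (+): tattaatagcaTTACGTCAgcctgggactg
The exact CRE, TGACGTCA, occurs in 2.08% of windows and in none of the 5 windows searched. With 1 mismatch allowed, a search of the 3 main starts added after the exact one, it occurs in 11.1% of windows and in the ATF3 window at 90 bases before the main start, inside both spans and directly after the first base of ATF3-208.

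The window at DDIT3-201 held no exact ER stress response element, a site of CCAAT, 9 bases and CCACG that occurs in 0.0891% of windows. With 1 mismatch allowed, also added later, 1.61% of windows hold it. DDIT3 had it on both strands, beginning at 100 and 90 bases before the main start, with the fixed letters in capitals below. Neither match lies in a listed span, since the spans open 3 bases before that start.
DDIT3 strand, chr12:57914373-57914402 (-): cggggCCAATgccggcgtgCCACTttctga
Opposite strand, chr12:57914364-57914393 (+): acctaCCAATcagaaagtgGCACGccggca
The hypoxia response element core, ACGTG or GCGTG, was found at 91 bases before the DDIT3 start, where it overlaps both of these, and at 7 bases after the first base of ATF3-202 on the other strand, against 52.9% of windows. The heat shock element, TTC, 2 bases, GAA, 2 bases and TTC, is in 0.421% of windows and was not found in these windows. At ATF5-201 and ATF5-202 none of the motifs was found, and the ATF3 distal start had the composite site at 118 bases before it. A lack of match covers these letters in these windows alone.

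Beside the 3 factors, 48 other genes of the integrated stress response and the unfolded protein response were looked up in the lists by name. The HEK293T list named 6 of them (12.5%), against 7.14% of 20149 protein-coding genes. These were ATF4, the central factor of the response, EIF2B4, a subunit of the exchange factor that acts on eIF2, NUPR1, a stress-induced chromatin protein, SEL1L, which takes part in ER-associated degradation, SLC3A2, the heavy chain of amino acid transporters, and STC2, a secreted glycoprotein. The ATF4 span was short, with 150 bp at chr22:39916564-39916713, and covered 8 ATF4 starts. SLC3A2 had 2 spans of 298 and 209 bp. HSP90B1, an ER chaperone, was not named, but its start was covered by a span with another name.

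Of these 48 genes, STC2 alone was named under stress, in the heat shock list, against 0.313% of protein-coding genes, and in the hypoxia list, against 1.74%. Its span was chr5:172755223-172756506 in HEK293T cells and under hypoxia, and chr5:172755193-172755551 after heat shock. Of 49 other bZIP genes, the HEK293T list named 7 (14.3%), against 7.14% of protein-coding genes: ATF4, BATF3, CEBPA, CREB3, CREB5, FOS and NFIL3. The stress lists named 0 of them, against 0.313% of protein-coding genes for heat shock and 1.74% for hypoxia. With 49 genes, 0 is near those shares. The start of NFE2L2, a factor of the oxidative stress response, was covered in HEK293T cells by a span with another name, and the CREB3 span covered 0 CREB3 starts.

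By list membership, ATF3 and DDIT3 followed the same pattern, with a start covered in HEK293T cells and under hypoxia and in no heat shock span, as for 211 other protein-coding genes. Among those that, like DDIT3, are covered under other names alone, the first by position were MICOS10, MICOS10-NBL1, CHTOP, SEC31A and MFSD8. ATF5, covered in HEK293T cells and after heat shock but not under hypoxia, shared its pattern with 31 genes, and HSPE1, HSPE1-MOB4, FAM53C, SRCAP and IL4I1 were the first of these by position under other names alone. IL4I1 starts lie inside the same spans as those of ATF5, so its shared pattern was fixed in advance. NUP62 also starts inside both ATF5 spans, and ENSG00000285133 inside both DDIT3 spans. Their coverage by those spans is likewise no separate likeness. The likeness rests on presence in 3 lists and on no measured level. The stress lists hold only peaks called as changed, so absence from one does not show that a peak was absent in that condition.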

How the data were processed

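The study comprised 34 libraries of HEK293T cells in 21 groups of 1 or 2. Per the methods, the authors trimmed reads with Trim Galore 0.6.6, aligned read 2 of a stranded kit to hg19 with HISAT2, called peaks with exomePeak and MACS2, kept those found in m7G-IP and more than 2-fold higher in FTO (-) than FTO (+), called changes under stress with exomePeak and DESeq2, and named peaks with homer. How replicates were combined is not given in the sources used here. The deposited lists hold chromosome, start, end and gene name. Both stress lists also hold a column of the authors' own comparison of stressed with untreated cells, which was not used. CAGE was not analysed here.

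Spans were set against Gencode release 44 on GRCh37 with Python 3.11.15 and pyfaidx 0.9.0.4. Coordinates were read as 1-based, since 244 of 1652 HEK293T span starts coincided with the opening base of some Gencode exon, against 20 after a shift of 1 base up or down. A start site counted when inside the span, and overlap from 1 base. Older symbols were matched through the reference gene names. The span and reading frame routines were tested on made-up cases with known answers. Named genes were the rows above, genes starting inside their spans, genes of both lists that a deposited list names, and at most 5 genes in the same lists as each factor. MARS1 and MBD6, as neighbours, and HSP90B1 and NFE2L2, covered under other names, were named after their values were seen. These members and lists were chosen with earlier results of these data known. No test was made, since the lists hold no value per library.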

Additional observations from a re-analysis of the deposited data

How the results depend on the processing

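No paired analysis was possible because each list holds 1 pooled set of peaks per condition, and leaving out a replicate was not possible for the same reason. The 6 spans covered a start of their stress gene with protein-coding transcripts alone, with 100 bases of slack and with the start read as 0-based. The last reading would put the heat shock span 1 base inside the ATF5-202 start. With protein-coding transcripts alone, 5 of 11 covered starts began with A. The share was 39.0% of 4519 protein-coding starts of the named gene inside HEK293T spans. At 4 of the 11 the context was BCA, against 20.7%. Of the 3 stress spans that overlap a HEK293T span, 2 did so by 50% of both spans and 2 by gene name, the exception being NUP62 at ATF5 each time. Over the whole lists, the gene name was also in the HEK293T list for 55.4% of heat shock and 55.1% of hypoxia rows. Exons of protein-coding transcripts alone took 167 and 164 bases of the ATF3 spans in HEK293T cells and under hypoxia, against 258 and 255 with all transcripts. ATF5-201 kept 1 of its 2 reading frames at a minimum of 10 codons.

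The list-wide shares moved more. With protein-coding transcripts alone, 84.4% of HEK293T and 86.4% of hypoxia spans covered a start of the named gene, and with 100 bases of slack 96.4% and 94.6%. An end lay within 100 bases of a start of another protein-coding gene in 16.8% of HEK293T spans. Of the 3 HEK293T spans described here, 1 met that rule. Overlap by 50% of both spans was found for 45.9% of heat shock and 45.6% of hypoxia spans. Upstream reading frames were present in 57.6% of all protein-coding transcripts, 44.7% with 1 transcript per gene and 31.9% of MANE Select transcripts at 10 codons or more. These values rest on other rules or, for 57.6% and 44.7%, on other sets of transcripts.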

Other observations

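Among short spans, lengths in multiples of 30 bases were common. Of the 647 HEK293T spans of at most 500 bp, 32.5% had such a length, as had 35.5% of 31 heat shock spans and 40.5% of 158 hypoxia spans, and longer spans were not counted. The ATF3 span of 300 bp in HEK293T cells is such a length, and that of 297 bp under hypoxia is not.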
